A study of Homo sapiens with 6 samples.

Results

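The transcripts described here are those of ND1, ND4 and COX3, 3 protein-coding genes of the mitochondrial genome, measured by 4 probe sets of an expression array. Members are all probe sets with one of these symbols as the only symbol in the platform annotation, which gives 3 of the 18132 genes that have such a probe set. The genes were chosen from their values in this same comparison of exposed and unexposed cells, so their differences between the groups are given as a description, with no test. All 4 probe sets were above the brightness floor used for other genes (log2 4.64, the 40th percentile of probe sets that are not controls).

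The cells were ARPE-19, an established line of human retinal pigment epithelium, and each of 6 arrays held RNA of 1 sample. The 3 arrays of the 0 h group came from cells without glucose oxidase. The 3 arrays of the 3 h group came from cells given 10 mU/ml of this enzyme for 3 h, starting 48 h after transfection; glucose oxidase makes hydrogen peroxide from the glucose of the medium. By the protocol every culture was transfected with GFP, whereas for the 3 h arrays the sample descriptions give a GFP construct with satellite alpha. The construct of the 3 h group is thus unsettled, and no untreated 3 h array is among the samples, so exposure, construct and time in culture cannot be told apart. They name 1 cell line and do not state separate cultures, so the spread between replicates may be technical. Among 12 pigment epithelium markers listed for the check, the keratin gene KRT18 (12.2 at 0 h, 12.6 at 3 h) and the eye transcription factor genes MITF (8.15 and 8.48) and OTX2 (8.37 and 8.56) were well above the floor, while the visual cycle genes RPE65 (mean 3.48) and RLBP1 (mean 4.20) were under it. In all 10 of the 12 were above it. Their differences were not of one sign: KRT8 (0.40), KRT18 (0.34), MITF (0.33) and OTX2 (0.19) were higher on every 3 h array, SERPINF1 (-0.41) and SLC6A15 (-0.34) were lower on every 3 h array, and the other 4 overlapped. The summed level of the list, to which the bright keratin genes contribute most, was 13.0 to 13.1 on the 0 h arrays and 13.3 to 13.4 on the 3 h arrays. Of 7 markers of other cell types that could be measured 6 were above the floor, with a summed level of 7.96 to 8.03 at 0 h and 7.93 to 8.01 at 3 h; the leukocyte marker PTPRC was under it.

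Human mitochondrial DNA is a small circular genome in the mitochondrial matrix. It encodes core subunits of the respiratory chain and ATP synthase together with the ribosomal and transfer RNAs needed to translate them. Its strands are transcribed into long precursors by a dedicated RNA polymerase, POLRMT, with the factors TFAM and TFB2M, and most messages are freed by excision of the transfer RNAs between them and then receive short poly(A) tails. The nuclear genome carries many partial copies of mitochondrial sequence, which array probes may also match. ND1 and ND4 encode membrane subunits of complex I, the NADH dehydrogenase that pumps protons at the start of the chain. COX3 encodes a core subunit of complex IV, cytochrome c oxidase, which passes electrons to oxygen. In the reference gene order (GRCh38.p14 gene table) ND1 follows the ribosomal RNA genes, COX3 lies directly after ATP6, and ND4 lies directly after ND4L. That table lists 13 protein-coding mitochondrial genes, and for the other 10 no probe set carried their symbol alone.

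The mitochondrial transcripts did not move together. The ND1 and ND4 probe sets were higher on every 3 h array than on any 0 h array, and both COX3 probe sets were lower on every 3 h array. Of all 29576 probe sets above the floor, 30.1% were higher on every 3 h array and 30.5% were lower on every 3 h array, so a separation of the groups was common in either direction and nothing is read from it for these members. Differences as large as those of ND1 and ND4 were less usual. Nothing is read from that either, since the genes were chosen from this comparison. Of the same probe sets, 2744 (9.28%) were higher at 3 h by 0.5 or more on the log2 scale. Among the 1629 probe sets whose mean was at least that of the dimmest member, 62 (3.81%) were.

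ND1 had values of 11.46, 11.42 and 11.46 on the 0 h arrays (log2, replicates 1 to 3) and 12.43, 12.37 and 12.33 on the 3 h arrays. The groups were separated by a gap of 0.86, far wider than the spread within either. The means were 11.45 ± 0.03 and 12.37 ± 0.05 (SD, n = 3), a difference of 0.93 (SE 0.03), or 1.90-fold higher at 3 h. In RNA from whole cultures, a difference in the number of cells that hold a transcript and a difference in its amount per cell cannot be told apart. Of the 29576 probe sets, 539 had a higher difference. The ND1 probe set, 11761515_s_at, is of the class whose probes are shared between several transcripts.

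ND4 had values of 12.65, 12.67 and 12.67 at 0 h and 13.29, 13.28 and 13.19 at 3 h. Its gap between the groups was 0.51, with the lowest 3 h value on replicate 3, as for ND1. The means were 12.66 ± 0.01 and 13.25 ± 0.06 (SD, n = 3), a difference of 0.59 (SE 0.03); the 0 h signal was 0.666 of that at 3 h. Its probe set, 11764256_s_at, is of the same shared class. Both genes belong to complex I, yet their differences were not equal: the within-array value of ND1 minus ND4 went from a range of -1.26 to -1.18 at 0 h to -0.91 to -0.86 at 3 h. ND1 was higher than ND4 by 0.34 (SE 0.03) in its difference between the groups.

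COX3, on its first probe set 11762921_at, had values of 10.55, 10.51 and 10.86 at 0 h and 10.47, 10.41 and 10.27 at 3 h. Replicate 3 at 0 h stood 0.22 above its group mean and carried much of the difference. The means were 10.64 ± 0.19 and 10.38 ± 0.10 (SD, n = 3), a difference of -0.26 (SE 0.13), and the groups were separated by a gap of only 0.03. The second COX3 probe set, 11762923_x_at, whose class may cross-hybridize, had 11.84, 11.82 and 12.12 at 0 h and 11.73, 11.79 and 11.67 at 3 h. Its means were 11.93 ± 0.17 and 11.73 ± 0.06, a difference of -0.20 (SE 0.10), again with a gap of 0.03. Without replicate 3 at 0 h the differences were -0.15 and -0.10.

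The COX3 probe sets are annotated to the same source transcript, so they are not independent measures of the gene. They moved together from array to array: replicate 3 at 0 h was 0.22 and 0.20 above its group mean on the first and the second, and replicate 3 at 3 h was 0.11 and 0.06 below. ND1 and ND4 had no such excursion at 0 h, where their largest deviations from the group mean were 0.03 and 0.02. The COX3 difference was close to the spread within its groups, and those of ND1 and ND4 were many times the spread within theirs. This describes these arrays only, since the genes were chosen from this comparison and the spread may be technical. Within arrays, ND1 minus the mean of the COX3 probe sets ran from -0.03 to 0.27 at 0 h and from 1.27 to 1.36 at 3 h, a shift of 1.16 (SE 0.10). ND4 minus the same mean shifted by 0.81 (SE 0.10), from 1.18 to 1.51 at 0 h to 2.18 to 2.22 at 3 h. Only the shifts are to be read, since the signals of different probe sets are not on a common scale.

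**Figure D1:**
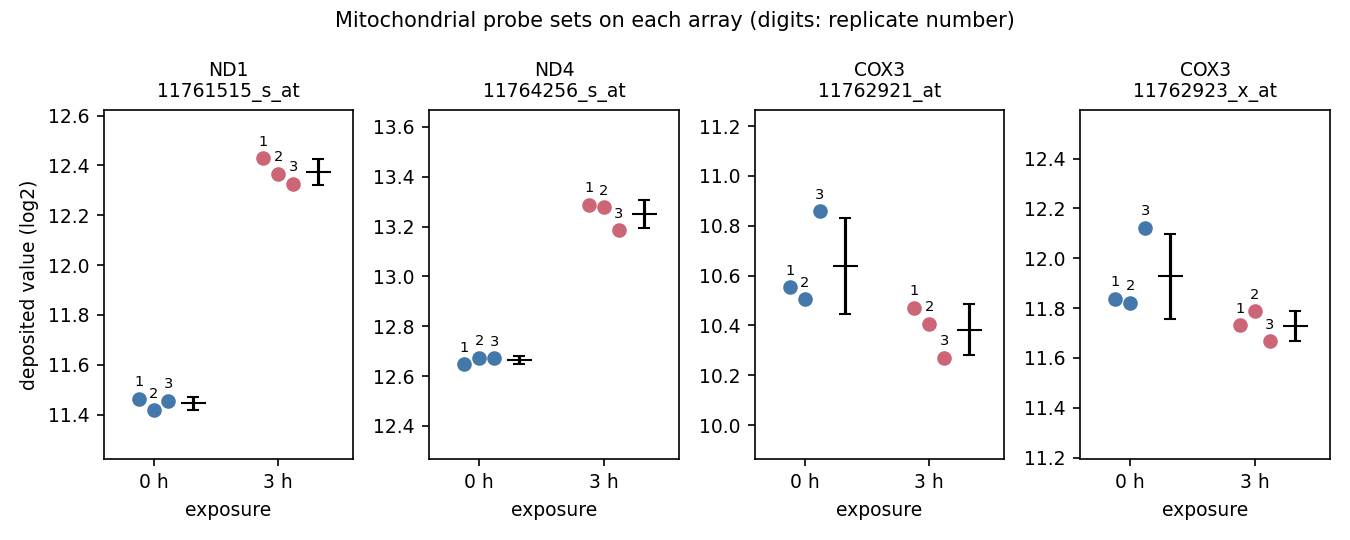
Deposited log2 value (vertical axis, each panel spanning the same range of 1.4) of the 4 probe sets on the 0 h arrays (blue) and 3 h arrays (red); points are single arrays with their replicate number, and the bars are the group mean ± SD (n = 3). ND1 and ND4 are higher on all 3 h arrays by gaps of 0.86 and 0.51, while the COX3 panels show replicate 3 at 0 h above all other arrays and gaps of 0.03.

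A further probe set is annotated jointly to COX1 and ATP6, 2 other protein-coding genes of the mitochondrial genome, and cannot be assigned to either. Its values were 11.49, 11.44 and 11.53 at 0 h and 12.45, 12.55 and 12.44 at 3 h, which is 1.00 higher (SE 0.04) at 3 h. It was thus close to ND1 in its difference and opposite to COX3. Replicate 3 at 0 h stood 0.04 above its group mean there, compared with 0.22 and 0.20 on the COX3 probe sets.

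Other abundant RNA and the controls of the assay also differed between the groups. The 3 control probe sets for 18S ribosomal RNA, a nuclear-encoded RNA without a poly(A) tail, were higher on every 3 h array, by 0.66 (3′ probe set), 0.48 (middle) and 0.51 (5′). These differences are near that of ND4. On the 3′ set of 18S the 0 h arrays read 12.48, 12.50 and 12.72, so replicate 3 at 0 h was the highest of its group there too, as it was for COX3. The control probe sets for 28S ribosomal RNA were split: the 5′ set was higher at 3 h by 0.20 and the middle set differed by -0.42, while the dim 3′ set overlapped between the groups (-0.07).

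The poly-A spikes, transcripts added to the RNA before labelling, were lower on every 3 h array in all 24 of their probe sets (median difference -0.60), and 17 of the 18 probe sets for the hybridization spikes were lower too (median -0.31). The log2 value of the 5′ minus the 3′ probe set of actin, which depends on RNA integrity and on how far labelling reached along the message, went from -2.06 ± 0.07 to -1.20 ± 0.06 (n = 3). That of GAPDH went from -0.39 ± 0.05 to -0.13 ± 0.04. The part of ribosomal RNA carry-over, spikes and labelling length in the mitochondrial differences was not tested, and a batch of RNA or array preparation cannot be told apart from the exposure.

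**Figure D2:**
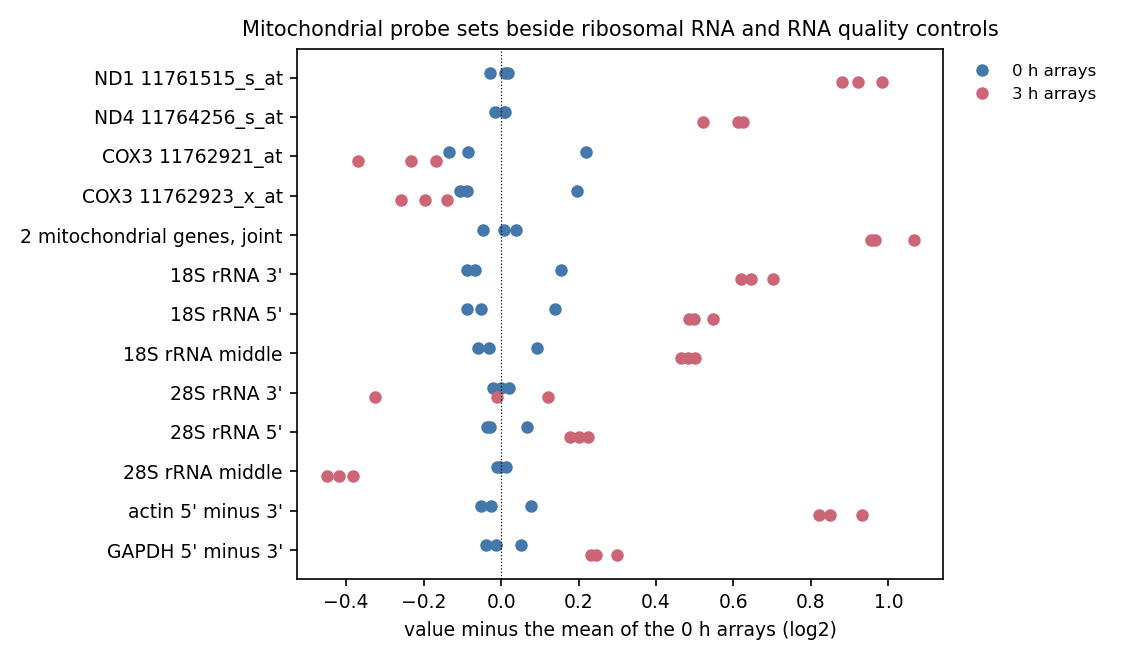
Value of each array minus the mean of the 0 h arrays (log2, horizontal axis) for the mitochondrial probe sets, the joint probe set, the 18S and 28S ribosomal RNA controls and the 5′ minus 3′ values of actin and GAPDH; each point is 1 array, blue for 0 h and red for 3 h. The 18S controls were higher at 3 h by 0.48 to 0.66, while the 28S controls differed by 0.20 (5′), -0.42 (middle) and -0.07 (3′). The 5′ minus 3′ values, which are not levels, shifted by 0.87 (actin) and 0.26 (GAPDH). The COX3 points of both groups lie close together.

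Nuclear genes that serve the same organelle were then examined, in 7 lists set by function, with limma over all 12221 genes above the floor and Benjamini-Hochberg adjustment at 0.05. Each gene was represented by its brightest probe set, and of 153 listed genes 147 were on the array and 143 above the floor. Of all these genes 20.6% rose and 30.8% fell, with a median log2 difference of -0.04. Of these 143 genes 10 rose, 79 fell (55.2%) and 54 did not pass, with a median of -0.20. The lists were chosen with earlier results of these data known. They are described by these counts and medians only, and were not tested as sets. Bright probe sets leaned lower as well, and many of the complex I and IV subunits are bright. Of the 1629 probe sets at least as bright as the dimmest member, 45.1% were lower and 27.9% higher on every 3 h array. For all probe sets above the floor these shares were 30.5% and 30.1%. The lists were not matched for brightness. The median of each of the 7 lists was below 0 as deposited, after quantile normalization and after median centring, as was that of all genes (-0.04, -0.05 and -0.07).

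Most nuclear partners of ND1 and ND4 in complex I fell. Of 36 tested subunits 23 fell (63.9%, beside 30.8% of all genes tested), 0 rose (beside 20.6%) and 13 did not pass in limma. At an unadjusted p under 0.05, 24 subunits were lower and 0 higher, beside 4168 and 2873 of all 12221 genes. The median difference of the subunits was -0.24, with a range of -0.52 to 0.08. NDUFB1, an accessory subunit of the membrane arm in which ND4 also lies, went from 11.92 ± 0.04 to 11.41 ± 0.07 (n = 3), a decrease to 0.70 of its 0 h signal (limma adjusted p = 0.000223). NDUFS5 fell by 0.51, NDUFA6 by 0.48 and NDUFS4 by 0.44. NDUFS4 rests on a single bright probe set; averaged with its other, dim one (2.52 at 0 h) it stood at -0.14 and was not called. The differences of ND1 (0.93) and ND4 (0.59) lay above this range. Nothing is read from that, since both genes were chosen from this comparison.

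Assembly factors of complex I, which build the enzyme from its nuclear and mitochondrial parts without staying in it, fell for the most part. Of 20 tested 16 fell (80.0%, beside 30.8% of all genes tested), 0 rose (beside 20.6%) and 4 did not pass in limma. At an unadjusted p under 0.05, 17 were lower and 0 higher, beside 4168 and 2873 of all 12221 genes. The median of the assembly factors was -0.27. NDUFAF7, a methyltransferase acting on the complex, fell by 0.51, NDUFAF4 by 0.47, and NDUFAF2 and TMEM126B both by 0.45. Without probe sets of the shared, cross-hybridizing and alternative-transcript classes (_s_at, _x_at and _a_at) TMEM126B stood at -0.11 and was not called. As tested, the limma adjusted p of these 4 ran from 0.000216 to 0.000355.

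Nuclear subunits of complex IV, the partners of COX3, fell or were not called. Of 15 tested 8 fell (53.3%, beside 30.8% of all genes tested), 0 rose (beside 20.6%) and 7 did not pass in limma. The counts were the same at an unadjusted p under 0.05, beside 4168 lower and 2873 higher of all 12221 genes. The median of these subunits was -0.19. By another measure, 45.1% of probe sets at least as bright as the dimmest member were lower on every 3 h array. COX7A1, a subunit isoform best known from muscle, went from 7.96 ± 0.09 to 7.35 ± 0.02 (n = 3, limma adjusted p = 0.000134). The subunit genes COX6C, COX7A2 and COX7B fell by 0.27, 0.25 and 0.25. Without _s_at, _x_at and _a_at probe sets COX6C stood at -0.16 and was not called, while COX7B stood at -0.42. The differences of the COX3 probe sets, -0.26 and -0.20, lay within the range of these nuclear subunits, -0.60 to 0.15. The low end of that range is COX7A1 alone, and the next lowest is COX6C (-0.27). Nothing is read from that, since COX3 was chosen from this comparison.

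Of 20 assembly factors of complex IV 10 fell, 1 rose and 9 did not pass, with a median of -0.21. COA5 fell by 0.67 (limma adjusted p = 8.74e-05), CMC2 by 0.54, COX14 by 0.50 and COX11, which delivers copper to the catalytic centre, by 0.50. The single gene that rose, COX15, an enzyme of heme A synthesis, was named after its value was seen. It rose by 0.18 (limma adjusted p = 0.0277), and its call ended with median centring (0.15), with no filter on dim genes, as the mean of its probe sets (0.08) and when any array but replicate 3 at 3 h was left out (0.16 to 0.19).

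**Figure D3:**
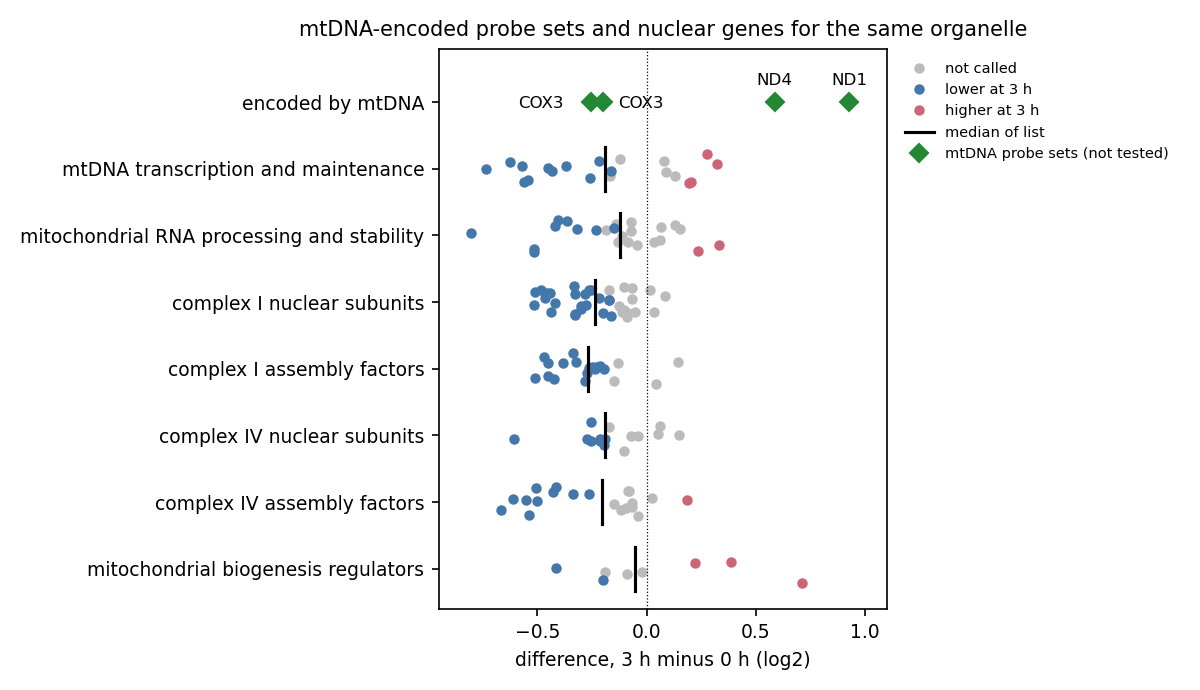
Difference of 3 h minus 0 h (log2, horizontal axis) for the 4 mitochondrial probe sets (green diamonds, not tested) and for the tested nuclear genes of 7 functional lists; circles are genes, red where higher and blue where lower at a limma adjusted p under 0.05, grey where not called, and black lines are list medians. ND1 (0.93) and ND4 (0.59) lie to the right of every complex I subunit and assembly factor, whose highest value is 0.14. The COX3 diamonds (-0.26 and -0.20) lie among the complex IV genes. The mitochondrial genes were chosen from this comparison, so nothing is read from their places. The probe set annotated jointly to COX1 and ATP6 (1.00) is not drawn.

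Genes for the transcription and upkeep of mitochondrial DNA moved in both directions. Of 20 tested 11 fell (55.0%, beside 30.8% of all genes tested), 4 rose (20.0%, beside 20.6%) and 5 did not pass. Their median was -0.19. The transcription elongation factor gene TEFM went from 8.65 ± 0.04 to 8.09 ± 0.10 (n = 3, limma adjusted p = 0.000223), a difference of -0.56 that was -0.34 as the mean of its probe sets. MTERF3, which acts on the mitochondrial ribosome and on transcription, fell by 0.54. The primase and polymerase gene PRIMPOL fell by 0.57 and the helicase and nuclease gene DNA2 by 0.62. DNA2 was dim, with means of 5.38 at 0 h and 4.75 at 3 h, the latter near the floor of 4.64.

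The core transcription machinery of the organelle was looked at after its values were known. POLRMT, the polymerase, rose by 0.19 (limma adjusted p = 0.0266), TFB2M, which opens the promoter, fell by 0.37 (0.00202) and TFAM, which packages and bends mitochondrial DNA, fell by 0.26 (0.0436). The difference of POLRMT was 0.36 as the mean of its probe sets, and its call ended with median centring (0.16), with no filter on dim genes, without replicate 1 or 3 at 0 h (0.18, 0.18) and without replicate 1 or 2 at 3 h (0.18, 0.16). That of TFAM ended with no filter on dim genes, without replicate 1 or 3 at 0 h (-0.19, -0.24) and without replicate 1 or 2 at 3 h (-0.22, -0.24). The TFAM values on the 0 h and 3 h arrays overlapped. The other 3 that rose, also named after their values were seen, were the helicase gene TWNK (0.20), RNASEH1 (0.28), which removes RNA from RNA-DNA hybrids, and the topoisomerase gene TOP3A (0.32). TWNK stood at 0.31 as the mean of its probe sets, and its call ended without replicate 3 at 0 h (0.16) and without replicate 1 or 2 at 3 h (0.18, 0.19). The call of TOP3A ended without replicate 2 at 0 h (0.23) and without replicate 1 or 3 at 3 h (0.30, 0.27).

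Of 24 tested factors that cut, modify and stabilise mitochondrial RNA, 13 did not pass and 9 fell (37.5%, beside 30.8% of all genes tested). The other 2 rose (8.3%, beside 20.6%), and the median of the list was -0.12. TRMT10C, a subunit of the nuclease complex that frees the 5′ ends of mitochondrial transfer RNAs, went from 9.06 ± 0.06 to 8.25 ± 0.02 (n = 3, limma adjusted p = 3.00e-05), or 0.57 of its 0 h signal; as the mean of all its probe sets the difference was -0.52. LRPPRC and its partner SLIRP, which bind mitochondrial messages and keep them stable, fell by 0.51 and 0.40, and FASTKD1 fell by 0.52. LRPPRC was not uniform over its probe sets: 3 were lower at 3 h (-0.51, -0.45 and -0.21) and 1 was higher (0.49). Its call ended as their mean (-0.17) and without _s_at, _x_at and _a_at probe sets (-0.21). The genes that rose, named after their values were seen, were ELAC2 (0.24), the nuclease for the 3′ ends of transfer RNAs, and the helicase gene DHX30 (0.33). The call of ELAC2 ended without replicate 1 or 2 at 0 h (0.24, 0.22), and as the mean of all its probe sets (0.10).

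Regulators of mitochondrial biogenesis in the nucleus had no common direction. Among 8 tested genes 3 rose and 2 fell, and the other 3 were not called, with a median of -0.05. PPRC1, a coactivator related to PGC-1, went from 7.45 ± 0.01 to 8.17 ± 0.16 (n = 3, limma adjusted p = 0.000214), 1.64-fold higher, and the nuclear receptor gene ESRRA rose by 0.22. GABPA, a transcription factor for respiratory chain genes, fell by 0.42 and NRF1, another such factor, by 0.20. PPARGC1B rose by 0.39, though its values on the 0 h and 3 h arrays overlapped. PPARGC1A, which encodes PGC-1 alpha, stood at -0.02 (limma adjusted p = 0.887). Both were named after their values were seen. The call of NRF1 ended without replicate 1 or 3 at 0 h (-0.19, -0.18), and the mean of all its probe sets differed by 0.0046. ESRRA stood at 0.36 as the mean of its probe sets, and its call ended without replicate 2 at 0 h (0.19). The call of PPARGC1B ended without replicate 1 or 2 at 0 h (0.31, 0.36) and without replicate 1 or 2 at 3 h (0.31, 0.36).

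The genes with the array profile most like each member were found among 12157 genes above the floor, with uncharacterised loci and LINC and MIR names passed over, by the root mean square distance over the 6 arrays after each profile's own mean was subtracted. For ND1 these were NAV1, a microtubule-binding protein gene, ARHGDIA, SMURF1, a ubiquitin ligase gene, and RIPOR1, at distances of 0.02 to 0.03 and with differences of 0.88 to 0.97. For ND4 they were VGLL4, a cofactor of TEAD factors, TMEM127, LPCAT1 and DENND2B, at 0.02 and with differences of 0.55 to 0.60. For the mean of the COX3 probe sets they were JDP2, HNRNPA2B1, KRTAP10-4 and EYA4, at 0.04 to 0.05 and with differences of -0.26 to -0.20. ND4 itself was at a distance of 0.17 from ND1, with 385 genes nearer, and COX3 was at 0.59, with 8901 genes nearer. These distances largely restate the difference between the groups on which the members were chosen, and are a description only.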

How the data were processed

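Expression was measured on 6 arrays, 3 per group. The deposited table holds a log2 value per probe set, a scale read from the values (array medians 5.30 to 5.34). MAS5 and RMA are named in the submitters' processing notes, with no role or order, and further steps were not stated in the labels. Values with nearly equal distributions do not show a change in total RNA. Symbols came from the platform annotation. The members and lists were chosen with earlier results of these data known.

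Differences are 3 h minus 0 h; the SE of a member's difference comes from both groups' SD. Nuclear genes were tested across all genes with limma 3.58.1 in R 4.3.3, after the floor described above, and the step was tested on simulated data. Named are all members, up to 4 genes per list with the smallest p, and the 4 genes most like each member. Figures used matplotlib 3.10.9. The alternatives were scaling, filter, choice of probe set, variance moderation, threshold, replicate number and single arrays. The arrays' number limits precision, and same-numbered arrays were not paired. No sequence of the members was used here.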

Additional observations from a re-analysis of the deposited data

How the results depend on the processing

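Under quantile normalization, median centring and leaving out each array, ND1 differed by 0.89 to 0.95 and ND4 by 0.55 to 0.62. The COX3 probe sets differed by -0.32 to -0.15 and by -0.25 to -0.10. All kept their direction under quantile normalization and median centring. Leaving out an array could not turn a direction, since the groups did not overlap on these probe sets. Only the sizes are read from that step. With the replicate block, 8 genes of the 7 nuclear lists rose and 73 fell (10 and 79 without), and the single rise among complex IV assembly factors went to 0; PPARGC1B was no longer called (limma adjusted p = 0.0503). Same-numbered arrays did not deviate together (r of -0.04, -0.02 and -0.19).

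At a threshold of 0.01, 3 list genes rose; by list, 1 rose in DNA upkeep, 1 in RNA processing, 0 in complex IV assembly and 1 among biogenesis regulators, and 10 fell in complex I assembly, 4 among complex IV subunits and 1 among regulators. Without probe sets ending in _s_at, _x_at or _a_at only 37 list genes and 3803 genes could be tested, with 2 and 697 higher and 12 and 995 lower. By list, 0, 0, 1, 0, 0, 0 and 1 then rose and 0, 0, 1, 5, 2, 4 and 0 fell (DNA upkeep, RNA processing, complex I subunits, complex I assembly, complex IV subunits, complex IV assembly, regulators). Averaged over probe sets, 1 complex I subunit and 1 assembly factor rose, 0 complex IV assembly factors rose and 1 regulator fell. With trend and robust moderation 4 RNA processing genes rose and 1 regulator fell. The rise among complex IV assembly factors was also 0 with median centring, with no filter and, chosen after seeing the data, without _s_at and _x_at probe sets.

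Leaving out single arrays gave 5 to 9 list genes higher: 1 to 3 in DNA upkeep, 1 to 2 in RNA processing, 0 to 1 among complex IV subunits, 0 to 1 in complex IV assembly and 1 to 3 among regulators, while 1 to 2 regulators fell. Named genes turned as follows: LRPPRC to 0.49 without _s_at and _x_at probe sets, NRF1 to 0.0046 averaged over probe sets, COX15 to -0.018 without _s_at, _x_at and _a_at, and PPARGC1A, not called at -0.02, between -0.115 and 0.094 over the single arrays left out, with the highest value without replicate 2 at 0 h. The cause of these shifts was not tested.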
